A study of Mus musculus with 6 samples.

Results

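The 9 genes described here, Stat2, Irf7, Irf9, Isg15, Ifit1, Ifit3, Oasl2, Usp18 and Rsad2, belong to the type I interferon response, and they were taken by name from the 21368 named genes on the array. The members are represented by 10 of 55681 probes, 1 for each gene and a further one for Isg15. Each probe was assigned to its gene through its RefSeq accession. Adult neural precursor cells from the dentate gyrus of male C57BL6/JRj mice aged 8 weeks, kept in adherent culture with EGF and bFGF at 20 ng/ml, were given human LDL (low-density lipoprotein, a cholesterol carrier of blood) or saline for 48 h. The LDL group and the saline group each had 3 arrays, labelled as independent experiments on different passages, and all 6 arrays lay on 1 slide. The labels give the LDL dose as 100 ug/ml in the treatment protocol and with another volume unit in the sample descriptions, so the dose unit is uncertain. The labels name no genetic change and no interferon treatment in either group.

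Type I interferons bind the receptor made of Ifnar1 and Ifnar2, whose kinases Jak1 and Tyk2 phosphorylate STAT transcription factors, Stat2 among them. Stat2 and Irf9 are subunits of the complex ISGF3, which binds the interferon-stimulated response element (ISRE) in front of antiviral genes. In macrophages and some other cells, reduced sterol synthesis is known to prime this response through the DNA sensor pathway of cGAS and STING. The comparison of LDL with saline therefore asks whether interferon-stimulated genes differ in precursor cells whose sterol genes respond to LDL.

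The ISRE core was sought as GAAA, any 2 bases and GAAA again, on both strands and allowing overlap, in the 250 bases before each gene start in RefSeq windows of the build GRCm38.p6. The windows of 5 of the 8 members that have one held it, against 2.98% of 32851 windows. Of the 34 other antiviral effector genes with a window, 10 held it. The stretches around the matches are shown for the 5 members that held the core. Capitals mark the matches, each stretch reads 5′ to 3′ on the strand of its gene, and a core on the opposite strand reads TTTC, 2 bases and TTTC.
Isg15, chr4:156200860-156200911, minus strand: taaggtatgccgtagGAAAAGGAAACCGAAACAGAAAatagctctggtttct
Ifit1, chr19:34640770-34640828, plus strand: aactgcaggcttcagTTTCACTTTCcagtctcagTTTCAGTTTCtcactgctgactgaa
Ifit3, chr19:34583358-34583431, plus strand: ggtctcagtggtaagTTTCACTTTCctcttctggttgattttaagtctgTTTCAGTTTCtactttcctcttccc
Rsad2, chr12:26456548-26456587, minus strand: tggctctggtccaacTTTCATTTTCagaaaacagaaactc
Stat2, chr10:128270261-128270300, plus strand: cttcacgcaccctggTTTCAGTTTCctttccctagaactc
Isg15 held 3 overlapping matches, the first beginning 78 and the last beginning 66 bases before the start. Ifit1 and Ifit3 held 2 each, and Rsad2 and Stat2 held 1 each. These exact letters were not in the windows of Irf7, Irf9 or Oasl2, and Usp18 had no window to search. A match is a description of the letters and not a measured binding site.

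Interferon-stimulated genes did not pass the test after LDL in either direction. Of the 9 members, 6 could be tested, and 0 of these 6 passed an adjusted p of 0.05 in limma, against 0.12% of all 24225 features (29 features, or 0.0124% higher and 0.107% lower with LDL). At an unadjusted p below 0.05 there was 1 of 6, against 7.46% of all features. The log2 fold changes (LDL minus saline) of the 6 lay between -0.28 and 0.26, with 4 positive and 2 negative. Their median was 0.17, beside -0.0263 over all features, where 56.2% of values were negative. The 95% intervals of all 6 stayed inside a change of 1 on the log2 scale, a doubling or halving. The exception among other settings was Irf7, whose upper end reached 1.02 without LDL replicate 2, 1.01 without LDL replicate 3, 1.04 without saline replicate 3 and 1.25 on the arrays of slide row 1. Array number limits the precision here, and an exact permutation test of 3 against 3 arrays cannot go below p = 0.1 (two-sided).

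**Figure D1:**
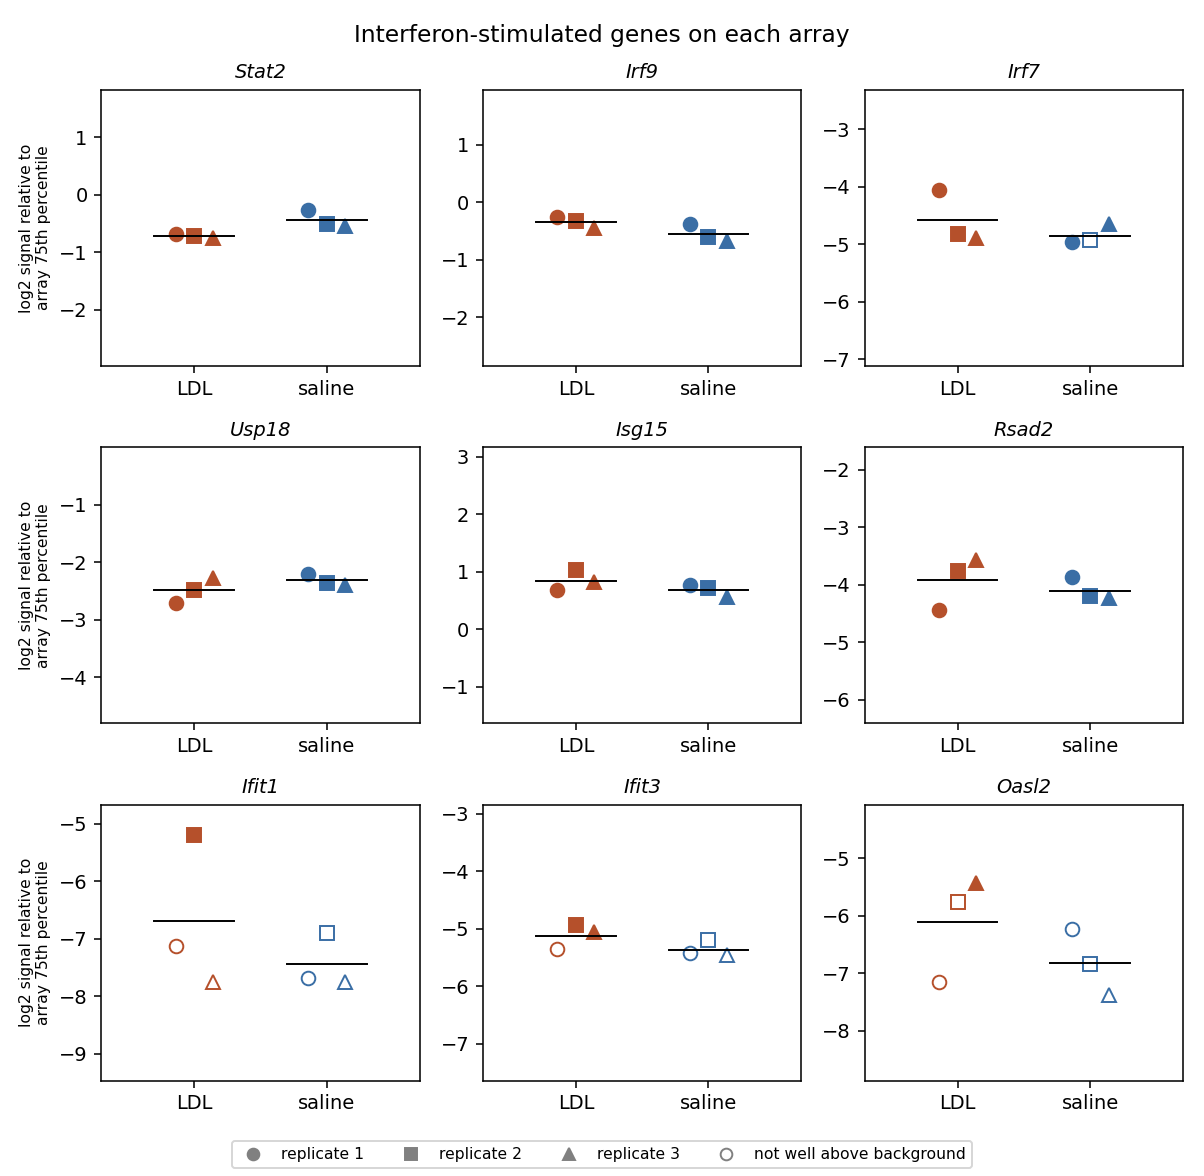
Log2 signal scaled to the 75th percentile (vertical axes, each spanning the same range of log2 units) for the 9 genes on 3 LDL and 3 saline arrays; each symbol is an array, the bar is the mean of 3, and open symbols were not well above background. The groups overlapped for every gene shown except Stat2, and the open symbols of Ifit1, Ifit3 and Oasl2 include all 3 saline arrays.

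The transcription factors of the response come first. Stat2, a subunit of ISGF3, had log2 signals of -0.69, -0.71 and -0.76 with LDL and -0.27, -0.51 and -0.54 with saline, where 0 is the 75th percentile of an array. All 3 LDL arrays lay below all 3 saline arrays, which was so for 8.77% of all features, and Stat2 was the 1 member whose groups did not overlap. The difference was -0.28 (SE 0.11, 95% interval -0.54 to -0.02) and did not pass in limma (adjusted p = 0.639, unadjusted p = 0.0382). It kept its sign in 18 of 18 other settings, between -0.33 and -0.19, with an adjusted p of at least 0.308. Some of these could not move it. Stat2 has 1 probe, and the settings of filter, block, variances and joining of probes all left the difference at -0.28.

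Irf9, the DNA-binding subunit of ISGF3, had log2 signals of -0.25, -0.33 and -0.44 with LDL and -0.38, -0.60 and -0.67 with saline. The lowest LDL array was under the highest saline array, so the groups overlapped. The log2 fold change was 0.21 (SE 0.12, 95% interval -0.07 to 0.49, limma adjusted p = 0.773), and it was positive in 18 of 18 other settings, between 0.15 and 0.30. As for Stat2, the settings of filter, block, variances and joining of probes could not move this value from 0.21. The values of Stat2 and Irf9 thus had opposite signs, and neither passed.

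Irf7, the factor that amplifies interferon alpha production once the response has begun, was a dim probe. Its processed signals were 58.0, 30.1 and 32.5 with LDL and 24.5, 24.0 and 37.8 with saline. It was well above background on 3 LDL arrays and 2 saline arrays, saline replicate 2 being the exception, so it was tested through the LDL group. On the log2 scale the values were -4.05, -4.81 and -4.89 with LDL and -4.96, -4.93 and -4.65 with saline, where LDL replicate 1 stood apart and the other arrays were mixed. The log2 fold change was 0.26 (SE 0.23, 95% interval -0.29 to 0.82, limma adjusted p = 0.852), and it was -0.002 without LDL replicate 1 and 0.42 without LDL replicate 3.

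Isg15 and Usp18 belong to the ubiquitin-like modifier system of the response. Isg15 encodes the modifier itself, which is attached to other proteins during the response. Its brighter probe had log2 signals of 0.68, 1.03 and 0.82 with LDL and 0.78, 0.72 and 0.57 with saline, and the groups overlapped because LDL replicate 1 was under the 2 highest saline arrays. The log2 fold change was 0.15 (SE 0.13, 95% interval -0.14 to 0.45, limma adjusted p = 0.842), and it was 0.24 when LDL replicate 1 was left out, 0.06 when LDL replicate 2 was and 0.09 when saline replicate 3 was. The dimmer Isg15 probe had -4.33, -3.78 and -4.00 with LDL and -4.56, -4.40 and -4.12 with saline, a difference of 0.33 (adjusted p = 0.806 in the limma fit of single probes). Both Isg15 probes gave a small positive value with overlapping groups, and both were well above background on all 6 arrays.

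Usp18, the protease that removes Isg15 and also blocks the interferon receptor, had log2 signals of -2.71, -2.49 and -2.27 with LDL and -2.20, -2.36 and -2.39 with saline. The LDL arrays reached lower but LDL replicate 3 lay among the saline arrays. The log2 fold change was -0.17 (SE 0.14, 95% interval -0.50 to 0.15, limma adjusted p = 0.837), between -0.32 and -0.06 over other settings.

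Among the antiviral effectors, Rsad2 encodes viperin, a radical SAM enzyme that makes a chain-terminating nucleotide. Its log2 signals were -4.44, -3.75 and -3.56 with LDL and -3.87, -4.19 and -4.23 with saline, so LDL held both the lowest and the highest array. The log2 fold change was 0.18 (SE 0.24, 95% interval -0.38 to 0.75, limma adjusted p = 0.911), and it was 0.44 without LDL replicate 1, 0.10 without LDL replicate 2, 0.0013 without LDL replicate 3, 0.29 without saline replicate 1 and 0.11 without saline replicate 3. The SD between arrays was 0.46 with LDL and 0.20 with saline.

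Ifit1, which binds foreign RNA, Ifit3, which lies near it on chromosome 19, and Oasl2, an oligoadenylate synthetase-like protein, were not tested. None of these genes was well above background on all arrays of a group. Ifit1 had processed signals of 6.84, 22.9 and 4.49 with LDL and 3.75, 6.12 and 4.42 with saline, and it was well above background on LDL replicate 2 alone. Ifit3 had 23.4, 27.4 and 28.8 with LDL and 17.7, 19.9 and 21.5 with saline, well above background on LDL replicates 2 and 3. Oasl2 had 6.75, 15.7 and 22.3 with LDL and 10.2, 6.38 and 5.69 with saline, well above background on LDL replicate 3. Processed signals are not scaled between arrays. After scaling, the log2 signals of Ifit3 were -5.36, -4.94 and -5.06 with LDL and -5.43, -5.2 and -5.46 with saline. The lowest LDL array was under the highest saline array, so the groups of Ifit3 overlapped. The 3 saline arrays gave only a bound for these genes, and LDL was not well above background on every array either, so no fold is given for them.

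Fitted without the background filter, each of these 3 genes had an adjusted p of 0.993 in limma. All 4 detections of these genes were on LDL arrays. Among all 12492 features without a tested probe, 7.09% were well above background on more LDL arrays and 13.5% on more saline arrays. Among the 23 untested genes of the other interferon lists, 5 were so on more LDL arrays and 3 on more saline arrays. The share of all probes well above background was 59.7%, 64.1% and 65.8% on the LDL arrays and 66.5%, 55.9% and 66.9% on the saline arrays. The part of array brightness in these detections was not tested. Near-identical relatives such as Ifit3b can share signal with the Ifit probes, which was not tested, and Ifit3b and Ifit1bl1 were well above background on 0 arrays by their own probes.

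**Figure D2:**
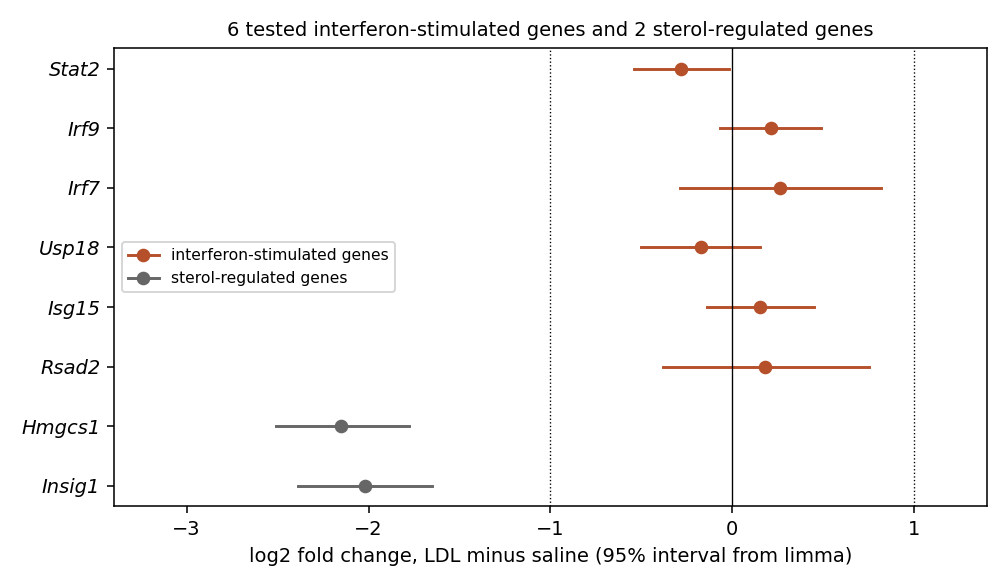
Log2 fold change, LDL minus saline, with its 95% interval from limma (horizontal axis) for the 6 tested interferon-stimulated genes and, in grey, 2 sterol-regulated genes; dotted lines mark a change of 1 either way. The 6 intervals lie between -0.54 and 0.82, while those of Hmgcs1 and Insig1 lie below the lower dotted line.

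On the same arrays, 2 genes that sterols control through SREBP2 passed with lower values with LDL. Hmgcs1, an early enzyme of sterol synthesis, differed by -2.15 (limma adjusted p = 0.0106) and Insig1, which holds the sterol sensor in the endoplasmic reticulum, by -2.02 (adjusted p = 0.0114).

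The members did not share 1 pattern over the arrays. Of the 15 pairs of tested members, 7 had a positive Pearson correlation over the 6 arrays, and the values ran from -0.89 for Irf7 with Usp18 to 0.71 for Isg15 with Rsad2. Slide row 1 held 2 LDL and 2 saline arrays and slide row 2 the remaining pair. Between these rows, given in that order, the differences had the same sign for 3 of the 6, namely Stat2 (-0.31 and -0.22), Irf9 (0.20 and 0.23) and Isg15 (0.11 and 0.25). They had opposite signs for Irf7 (0.52 and -0.24), Usp18 (-0.32 and 0.12) and Rsad2 (-0.07 and 0.68). Ranked by Pearson correlation with the mean standardized signal of the 6 over the 6 arrays, the closest of 14926 other named genes were Nmi (r = 0.982), Bpnt2 (0.970), Sec61a1 (0.967), Krtap4-8 (0.962) and Nudt4 (0.962). Nmi encodes an interferon-induced protein that interacts with STAT factors, and its own log2 fold change was 0.06. After group means were subtracted, the closest were Tnrc18, Sarnp, Sec61a1, Ifngr1 and Rassf7, with r between 0.995 and 0.999. With 6 arrays and so many genes, correlations of this size describe these arrays only, and all 6 arrays share 1 slide. Of the 85 other interferon pathway genes in that first ranking, 10 were in its top 5%.

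The rest of the pathway also held no gene that passed. Of 114 genes on 7 lists, 108 were on the array and 85 could be tested. In limma, adjusted over all features, 0 of 85 passed, against 0.12% of all 24225 features. At an unadjusted p below 0.05 there were 8 with a positive and 4 with a negative value, against 2.96% and 4.5% of all features. The groups did not overlap for 16 genes with LDL higher and 8 with LDL lower, against 5.82% and 8.77%. The median log2 fold change of the 85 was 0.08, and 78 of them had intervals inside a change of 1 either way.

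**Figure D3:**
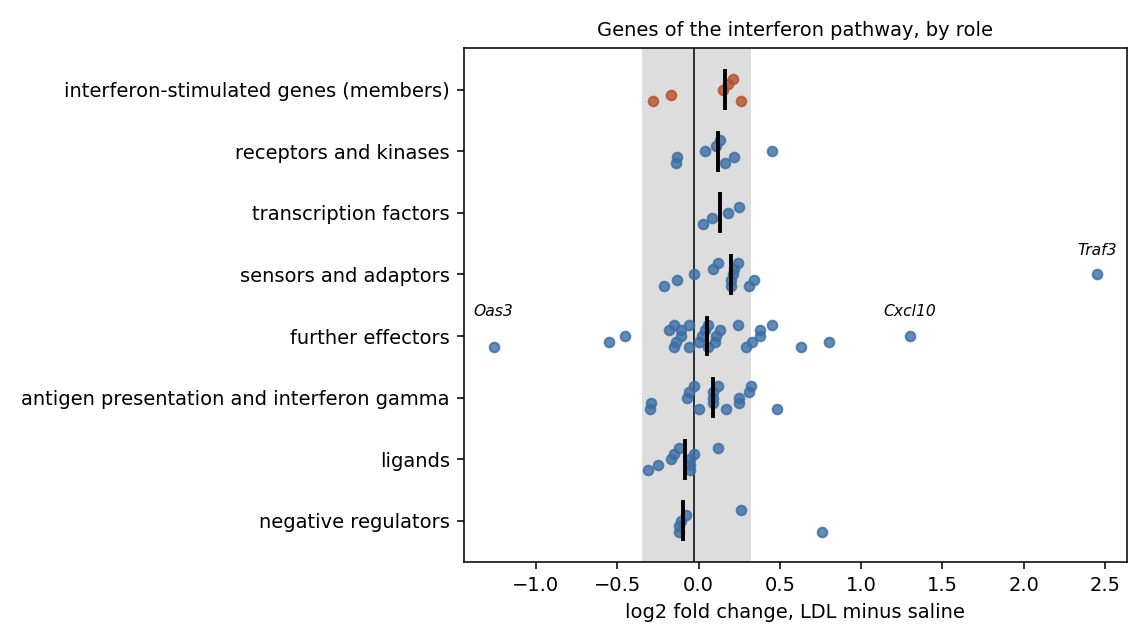
Log2 fold change, LDL minus saline (horizontal axis), of each tested gene of the interferon pathway, 1 row per list; each point is a gene, the thick bar is the median of the list, the thin line is the median of all features and the grey band spans the 5th to 95th percentile of all features. The medians lie between -0.09 and 0.20, and Traf3, Cxcl10 and Oas3 are named as the points beyond 1; Oas3 cleared the background on 1 of 3 LDL arrays and Cxcl10 on 1 of 3 saline arrays.

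The ligand probes differed in detection. Of 15 ligand genes on the array, 10 could be tested, and 9 of these were well above background on all 6 arrays, with Ifna11 so on 3 LDL arrays and 2 saline arrays. Of the tested ligands 0 passed, the median was -0.09, and the value farthest from 0 was that of Ifna2 at -0.31 (adjusted p = 0.738). The probe of Ifnb1, the interferon that starts the response in most cells, was well above background on 0 of 6 arrays, as was that of Ifng. Interferon alpha genes form a family of close copies, and whether their probes share signal was not tested.

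The receptor and its kinases were well above background, and 0 of 8 tested passed. Ifnar2, the signalling chain of the type I receptor, had log2 signals of 1.66, 1.83 and 1.82 with LDL and 1.55, 1.6 and 1.5 with saline, so the groups did not overlap, at a difference of 0.22 (SE 0.10, limma adjusted p = 0.693). Ifnar1, the other chain, differed by 0.04 (95% interval -0.27 to 0.36). The kinases Tyk2 and Jak1 differed by 0.45 and 0.13 (adjusted p = 0.714 and 0.832). For Tyk2, Jak1 and Ifnar2, 3 of the 8, every LDL array lay above every saline array, which was so for 5.82% of all features. Jak2 (-0.14) and Ifngr1 (-0.13) were on the negative side.

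Of the 4 tested transcription factors outside the members, Irf1 had 0.25 (adjusted p = 0.763), the lowest LDL array lying just above the highest saline array, and Irf3, which acts directly after sensing, had 0.08 (95% interval -0.14 to 0.30). Sensors and adaptors had the highest list median, 0.20 over 13 tested genes, of which 10 were positive and 0 passed. Myd88, an adaptor of Toll-like receptors, had 0.34 (adjusted p = 0.546), Mavs, the mitochondrial adaptor of RNA sensing, 0.20 (adjusted p = 0.692), Tbk1, the kinase that activates Irf3, 0.31 (adjusted p = 0.719) and Ticam1 0.21 (adjusted p = 0.775). For these 4 of the 13, and for Irf1, every LDL array lay above every saline array, which was so for 5.82% of all features. The DNA sensor Cgas had -0.13 (95% interval -0.50 to 0.24) and its adaptor Sting1 0.12 (95% interval -0.31 to 0.54), and the RNA sensors Ddx58 and Ifih1 had 0.22 and 0.24 (adjusted p = 0.820 and 0.848). Traf3 had the largest value at 2.45 (adjusted p = 0.831), which rests on 1 array. Its log2 signals were 4.02, 4.04 and 4.00 with LDL and 4.19, 3.82 and -3.28 with saline, where saline replicate 3 alone was low and the other saline arrays lay on either side of the LDL arrays.

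Further effectors had values of both signs. Of 28 tested, 17 were positive and 11 negative, 0 passed, and the median was 0.05. The smallest p belonged to Xaf1, a pro-apoptotic interferon-induced gene, with -3.19, -3.16 and -3.02 with LDL and -2.61, -2.43 and -2.68 with saline. This difference of -0.55 (SE 0.11) did not pass (limma adjusted p = 0.273), and a dimmer Xaf1 probe gave 0.18. Cxcl10, an interferon-induced chemokine, had 1.30 (adjusted p = 0.401), with log2 signals of -4.57, -3.95 and -4.23 with LDL and -5.48, -6.18 and -5.00 with saline. Its probe was well above background on 3 LDL arrays and 1 saline array, so it was tested through the LDL group and the size of its difference is uncertain. Oas3, which makes the activator of RNase L, had -6.67, -5.40 and -4.71 with LDL and -4.56, -4.32 and -4.13 with saline, and it was well above background on 1 of 3 LDL arrays, so the size of its difference of -1.26 (adjusted p = 0.599) is uncertain. Ifi35 had 0.38 and Bst2, the virion tether tetherin, 0.29 (adjusted p = 0.562 and 0.642), Ifi27l2a had -0.45 (adjusted p = 0.624), and Ifit2, the tested relative of Ifit1 and Ifit3, -0.14 (adjusted p = 0.912). Eif2ak2, the kinase PKR, had 0.13 and Ifitm3 0.63 (adjusted p = 0.866 and 0.829). Ch25h, which makes 25-hydroxycholesterol and so links interferon with sterol control, was well above background on 1 LDL array and 1 saline array and was not tested. Oas1a was so on 2 arrays of each group. No value is given here for Mx1.

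Antigen presentation and interferon gamma genes were all measured, with 11 of 16 positive, 5 negative and 0 passing (median 0.09). Gbp3, a guanylate-binding protein, had 0.48 (adjusted p = 0.475), Psmb8, an immunoproteasome subunit, 0.31 (adjusted p = 0.656) and Igtp 0.25 (adjusted p = 0.664), while H2-K1, a class I antigen-presenting molecule, had -0.29 (adjusted p = 0.642). Psmb9, another immunoproteasome subunit, had -0.30 (adjusted p = 0.686), opposite in sign to Psmb8. B2m, the shared light chain of class I molecules, differed by 0.09 (95% interval -0.15 to 0.32). Of 6 negative regulators 0 passed. Socs3, a feedback inhibitor of cytokine receptors, had 0.76 (adjusted p = 0.670) with overlapping groups, and Socs1, the inhibitor most tied to interferon, -0.11 (95% interval -0.48 to 0.27).

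The labelled cell type was checked by its markers. Of 10 neural precursor markers 9 could be tested, with a median log2 fold change of -0.10. Their mean log2 signals with LDL ran from -1.53 for Pax6 to 7.75 for Fabp7. Of 10 microglia markers 7 (Tmem119, Ptprc, Cx3cr1, C1qb, Cd68, Csf1r and Itgam) were well above background on all 6 arrays and could be tested (median -0.13). Among these, Itgam averaged 4.08 and Csf1r 2.24 on the log2 scale with LDL, against 4.08 and 2.21 with saline. Ptprc, Cx3cr1, Tmem119, C1qb and Cd68 were dimmer, at -4.21, -3.61, -2.50, -1.21 and -0.68 with LDL. Further probes of Itgam averaged -1.35 and -1.92 over the 6 arrays, and those of Csf1r 2.06 and -3.58. The other 3 microglia markers, Aif1, P2ry12 and C1qa, were well above background on at most 1 array. Of 8 vascular markers 3 could be tested (median -0.07). In these lists 0 genes passed in limma, and their part in the values above was not tested.

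**Figure D4:**
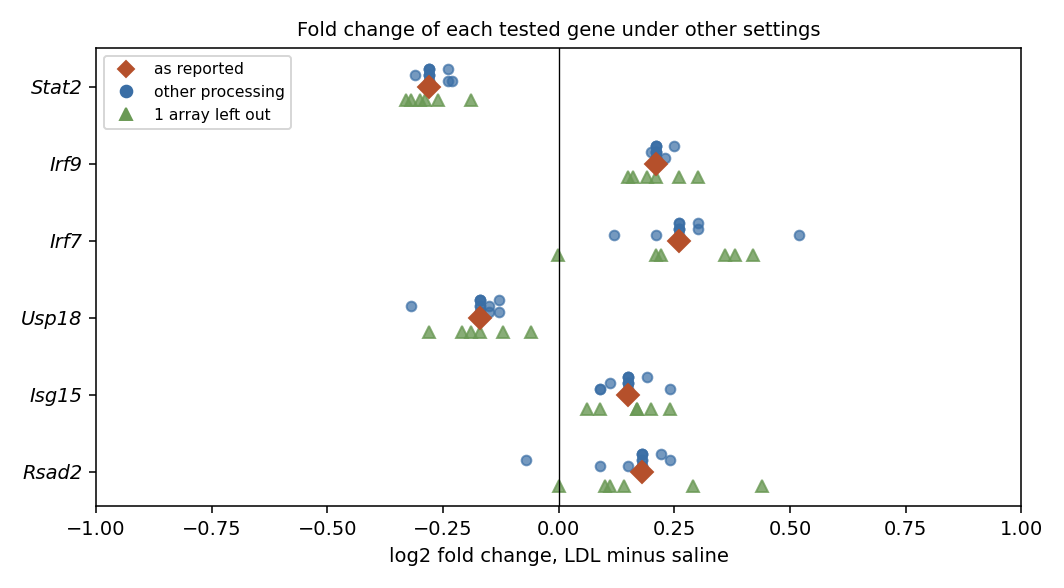
Log2 fold change, LDL minus saline (horizontal axis), of each tested interferon-stimulated gene as reported, under other processing and with 1 array left out. The values of Stat2 and Usp18 are negative and those of Irf9 and Isg15 positive in every setting shown, while that of Irf7 lies at -0.002 without LDL replicate 1 and that of Rsad2 at -0.07 on slide row 1.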

How the data were processed

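The authors deposited 1-colour Agilent scanner files, whose processed intensity (linear) had been background-subtracted and detrended but not scaled between arrays, per the file headers. Per the labels, 100 ng of RNA went into Cy3-labelled cRNA. Tools named in the submitters' processing notes are R 3.4.4, limma 3.34.9 and Agilent Feature Extraction 10.7.3.1. The log2 table the authors deposited, of unknown normalization (column medians 6.74 to 6.76), served as an alternative.

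Here log2 signals were used, less the 75th percentile of their array. Outlier-flagged spots were left out unless a probe had no other. A probe was tested if it was well above background on all 3 arrays of a group (32993 of 55681 probes). Names came from matching RefSeq accessions to a GRCm38.p6 gene table (28331 probes matched), since the files used hold no gene name column, and the brightest tested probe stood for a gene (24225 features). Limma 3.58.1 in R 4.3.3 compared LDL with saline, two-sided, with no covariate, and p-values were adjusted by Benjamini-Hochberg across the 24225 features. The fit was tested on simulated data. The members, the lists and the tests were chosen with earlier results of these data known. Named genes were all members, those named in advance, and in each list up to 4 with the smallest p in each direction, of which some are left out. Passages are the stated replicates. Figures used matplotlib 3.10.9.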

Additional observations from a re-analysis of the deposited data

How the results depend on the processing

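In limma, 0 members and 0 other interferon pathway genes passed in the fit as reported and in each of 18 other settings, also where the count of all features changed. That count, 29 as reported, was 0 without the background filter (1773 at an unadjusted p below 0.05), 14 with slide row as a block, 0 on the arrays of slide row 1 alone (867 at an unadjusted p below 0.05) and 55 with trended robust variances. With 1 array left out it ran from 0 to 29: 16 without LDL replicate 1, 0 without LDL replicate 2, LDL replicate 3 or saline replicate 3, 3 without saline replicate 2 and 29 without saline replicate 1. The fits with fewer arrays have fewer degrees of freedom, and the cause of the changed counts was not tested for any setting. Under the replicate block 3 features and 0 members passed. The members' median was 0.17 there too, but a balanced block changes the SE and cannot change the fold changes. Deviations of same-numbered arrays correlated at 0.21, -0.04 and 0.18 across features, and those of differently numbered arrays between -0.23 and 0.08. These values do not settle whether the arrays are paired, and the fit as reported assumed no pairing. The members' median was 0.02 on slide row 1 and between 0.08 and 0.20 with 1 array left out. The sign turned for 2 values: Irf7 had -0.002 without LDL replicate 1 (up to 0.42 without LDL replicate 3) and Rsad2 -0.07 on slide row 1. Irf7 was not tested when all 6 arrays had to be above background. Signal over background limits Ifit1, Ifit3, Oasl2 and Irf7.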
